A study of Homo sapiens with 2 samples.

Results

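The genes described here are the SNAREs of SAS cells and the proteins that release or chaperone them, 40 genes taken by symbol from the 61806 genes of the deposited table. All 40 symbols were found once each. SAS is an established human cell line of tongue squamous carcinoma origin, labelled wild type. One culture received the siRNA si2 against COL17A1, which encodes the transmembrane collagen of hemidesmosomes, and the other received a negative control siRNA; they are called si2 cells and control cells here. Both were transfected with a lipid reagent and harvested after 48 hours, and polyadenylated RNA was sequenced. There was 1 library per group, so no difference below has a replicate check, no p-value can be given, and an effect of COL17A1 itself cannot be told apart from an effect of this siRNA or this culture. In these bulk samples fewer cells with a transcript and less transcript per cell cannot be told apart either.

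SNAREs are the proteins that pull a vesicle and its target membrane together until they fuse. A fusing bundle takes a Qa, a Qb and a Qc helix from one membrane, or a Qa helix and a protein that carries both a Qb and a Qc helix, and an R helix from the other. After fusion the ATPase NSF and its SNAP adaptors pull the bundle apart for reuse, and Sec1/Munc18 proteins hold syntaxins and help the bundle to form. In epithelial cells these sets deliver adhesion receptors, matrix and proteases to the surface, recycle integrins through endosomes and feed lysosomes.

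The library of si2 cells held 21601195 counts and that of control cells 15980152. COL17A1 had 411 counts in si2 cells, against 3116 in control cells, or 2.72 against 27.9 FPKM. Its log2 ratio was -3.39, with an exact 95% interval of -3.55 to -3.25. Log2 ratios are of counts scaled by trimmed mean of M-values (TMM) factors with 0.5 added, and bracketed intervals are exact and cover counting error only. FPKM values, counts per exonic length scaled to the library total, are the authors' own, and only these are compared between genes. Over all genes of the table FPKM summed to 246111 in si2 cells and 221215 in control cells. The 7 squamous epithelial markers, among them KRT5, TP63 and EPCAM, summed to 937 FPKM in si2 cells and 737 FPKM in control cells. Of them KRT5 was called higher, with 22105 counts in si2 cells and 10502 in control cells and a log2 ratio of 0.60 [0.57 to 0.63]. That is 14.3% of the 7, beside 12.2% of all genes compared. With length, GC content and abundance regressed out KRT5 was at 0.34, under the 1.5-fold limit of a call. Markers of other cell types were at or near 0, those of leukocytes, endothelium, fibroblasts and neurons summing to 0.06, 0.09, 0.27 and 0.07 FPKM in si2 cells and to 0.09, 0.1, 0.15 and 0.09 FPKM in control cells.

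Of the 40 genes, 38 averaged at least 1 CPM, counts scaled to the library total and its TMM factor. These were compared, while STX19 and VAMP5 lay under the limit. Calls of higher or lower required a difference of 1.5-fold and an interval clear of 0 on the log2 scale. The endosomal syntaxin gene STX12, the R-SNARE genes VAMP8, VAMP2 and VAMP1, the Munc18 gene STXBP2 and the syntaxin genes STX10 and STX5 were called higher. The adaptor gene NAPG and the trans-Golgi syntaxin gene STX16 were called lower, and 29 genes were neither. The 7 higher genes were 18.4% of the 38, beside 12.2% of all 13375 genes compared, and the 2 lower genes were 5.26%, beside 11.7%. The median log2 ratio was -0.05 for the 38 genes and 0.03 for all genes; 18 of the 38 had values above 0 and 20 below. At 2-fold or more there was 1 higher gene, STX12, and 1 lower gene, NAPG, where 3.04% of all genes compared were higher and 3.6% lower. STX12 ranked 46 from the top and NAPG 76 from the bottom of the 13375 genes.

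**Figure D1:**
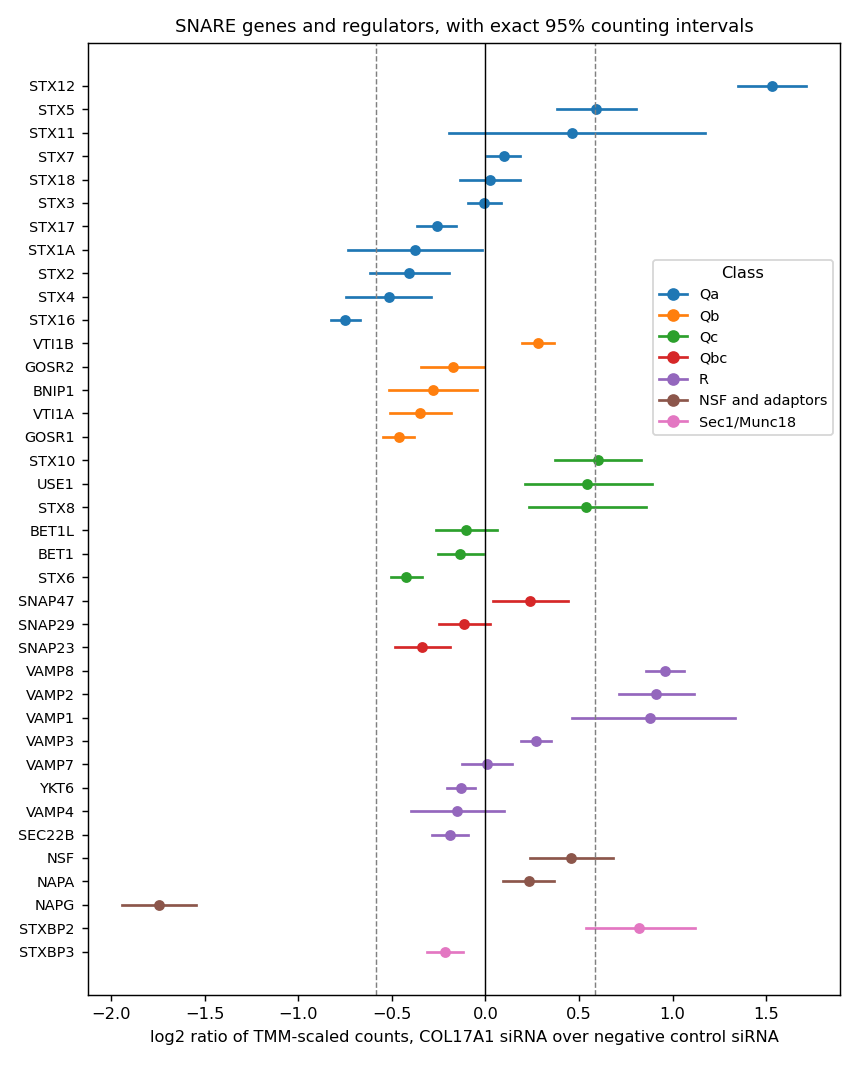
Log2 ratio of TMM-scaled counts, COL17A1 siRNA over negative control siRNA, for the 38 genes compared, grouped and coloured by class. Bars are exact 95% counting intervals and dashed lines mark 1.5-fold; STX12 at 1.53 and NAPG at -1.74 lie farthest from 0.

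The members' ratios followed transcript length and base composition about as those of all genes did. Over the 38 genes the Spearman correlation of the log2 ratio with exonic length was -0.39 and with transcript GC content 0.31; over all genes it was -0.39 for length, n = 13375, and 0.37 for GC content, n = 13258. All points share the same 2 libraries. The 7 higher genes had a median exonic length of 3241 bases and the 29 that were neither a median of 5690, and all genes compared a median of 5182. With length, GC content and abundance regressed out, STX12, VAMP2 and VAMP1 remained at least 1.5-fold higher, at 1.61, 0.71 and 0.65. VAMP8, STXBP2, STX5 and STX10 were then under 1.5-fold, at 0.56, 0.53, 0.30 and 0.09. NAPG and STX16 stayed lower at -1.56 and -0.66, and STX4 and STX1A joined them at -0.79 and -0.73. That made 3 higher and 4 lower of the 38, near the shares of 7.36% and 9.41% over all genes compared.

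Both lower genes carry a 7-base word in the 3' untranslated region that 27.6% of all 1360 lower genes searched carry. The word, GCTAATG, was chosen in an earlier look at the same libraries, so its link with lower ratios is a description and not independent evidence. It stood in the longest annotated 3' untranslated region of 993 of 11676 genes compared, or 8.5%, whose median log2 ratio was -0.41, against 0.05 in the genes without it. With length, GC content and abundance regressed out the medians were -0.23 and 0.03. Of genes with the word 37.8% were called lower, and of those without it 9.22%. The regions with the word are longer, with a median of 3482 bases against 1295. Of the 38 SNARE genes 5 held it, namely NAPG, with 2 copies, STX16, VTI1A, SNAP23 and STX7. Of these 5, 40% were called lower, near the 37.8% of all genes with the word. The stretches below show each copy in capitals with 10 bases on either side, 5' to 3' on the transcript strand, from GENCODE release 29 on GRCh38, since NAPG and STX16, the lower genes, share this word:
NAPG, first copy: ccaaataggaGCTAATGggtaatgaat
NAPG, second copy: cggctcccagGCTAATGtttttatttt
STX16: ttttatcctaGCTAATGgcttcttaaa
VTI1A: ttacctttttGCTAATGtcatcaacta
SNAP23: gccaatttagGCTAATGcttggttttg
STX7: ttttcccttcGCTAATGgcaatgatgt

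The NAPG stretches lie at chr18:10550941-10550967 and chr18:10551062-10551088, plus strand, starting their words at bases 731 and 852 of a region of 2540 bases. That of STX16 is at chr20:58679298-58679324, plus strand, with the word at base 3017 of 3235. VTI1A has it at chr10:112815630-112815656, plus strand, base 257 of 3361, and SNAP23 at chr15:42531984-42532010, plus strand, base 516 of 1583. In STX7 it is at chr6:132453681-132453707, minus strand, base 7061 of 14891. Among 3' untranslated regions of like length, 0.8 to 1.2 times as long, the word stood in 9.41% for NAPG, 13.0% for STX16, 13.7% for VTI1A, 5.89% for SNAP23 and 37.3% for STX7. The 5 log2 ratios were -1.74 for NAPG, -0.75 for STX16, -0.35 for VTI1A, -0.34 for SNAP23 and 0.10 for STX7, so the word went with values on both sides of 0. Of the 7 higher SNARE genes 0 held it, where 3.39% of all 1327 higher genes searched did, so this count is near the share over all higher genes. A second word from the same earlier look, TCGGAGA, was in 2.19% of all regions searched and in 0 of the 38. Both were searched on the transcript strand alone and neither is part of the other; neither complements bases 2 to 8 of any of 2370 mature human miRNAs in RefSeq (GRCh38.p14). Neither siRNA sequence is given in the sources used, and the part of either word in any ratio was not tested.

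**Figure D2:**
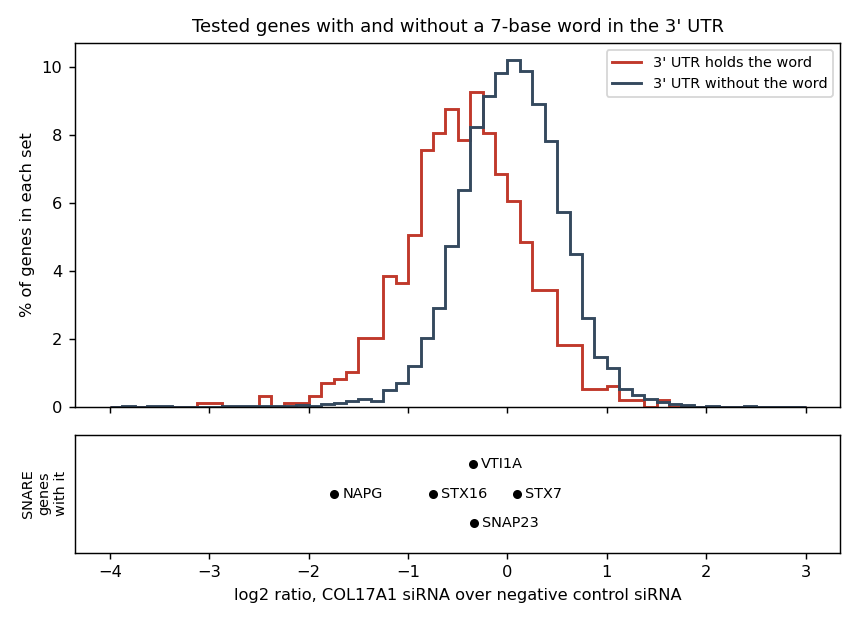
Upper panel, share of the 993 genes whose 3' untranslated region holds the first word (red) and of the genes without it (dark), in percent, against the log2 ratio, COL17A1 siRNA over negative control siRNA. Lower panel, the 5 SNARE genes that hold it, at their own log2 ratios; heights there only separate the labels.

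The Qa syntaxins, which mark where fusion happens, went in opposite directions in the endosomal system. STX12, also called syntaxin 13, serves early and recycling endosomes. It had 1256 counts in si2 cells, against 313 in control cells, or 15.3 against 5.15 FPKM. This was 2.89-fold higher after scaling, a log2 ratio of 1.53 [1.35 to 1.71]. STX7, its relative on late endosomes, had 2485 counts in si2 cells against 1673 in control cells and 7.02 against 6.39 FPKM, a log2 ratio of 0.10 [0.01 to 0.19]. STX12 thus stood at 2.18 times the FPKM of STX7 in si2 cells and at 0.806 times in control cells. The deposited exonic length of STX7 is 16387 bases, and where shorter transcripts are made its FPKM is understated in both libraries. STX12 (GRCh38 chromosome 1, 27773219 to 27824443, plus strand) overlaps 2 unnamed loci on its strand, which had 0 and 1 counts in si2 cells and 0 in control cells.

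STX16, the Qa syntaxin of traffic from endosomes to the trans-Golgi network, was the most abundant syntaxin per length in both libraries. It had 2483 counts in si2 cells, against 3005 in control cells, or 22.5 against 36.9 FPKM, a log2 ratio of -0.75 [-0.83 to -0.67] or 1.68-fold lower. Its gene (chromosome 20, 58651253 to 58679526, plus strand) shares 28093 bases with the readthrough locus STX16-NPEPL1, which had 3 counts in si2 cells and 4 in control cells, so its count depends on how shared reads were assigned. STX5, the Qa syntaxin of the early Golgi, had 584 counts in si2 cells against 279 in control cells and 9.38 against 6.06 FPKM, at 0.59 [0.38 to 0.80], just past 1.5-fold. STX18, which receives vesicles returning to the endoplasmic reticulum, was at 0.02 and STX17 of autophagosomes at -0.26.

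None of the Qa syntaxins of the plasma membrane that were compared was called, where 12.2% of all genes compared were higher and 11.7% lower. With length, GC content and abundance regressed out STX4 and STX1A were called lower, at -0.79 and -0.73, where 9.41% of all genes were. STX3, the apical syntaxin of polarised epithelia, had 2427 counts in si2 cells against 1755 in control cells and 15.4 against 15.0 FPKM, a log2 ratio of -0.01 [-0.10 to 0.08], so a change of over 0.1 on the log2 scale lies outside its counting interval. STX4, its basolateral counterpart, had 322 counts in si2 cells against 332 in control cells and 3.68 against 5.12 FPKM, at -0.52 [-0.74 to -0.29]. STX2 was at -0.41, STX1A, the syntaxin of synaptic release, at -0.38 and STX11, known from lytic granules of lymphocytes, at 0.46 on 56 counts in si2 cells and 29 in control cells, with an interval of -0.20 to 1.18. STX19, under the abundance limit, had 22 counts in si2 cells and 3 in control cells, a ratio of 4.63 [log2 0.67 to 4.78] that rests on few reads. The 12 Qa genes summed to 95.9 FPKM in si2 cells and 99.3 FPKM in control cells. Within that near-equal sum STX12 made up 15.95% in si2 cells and 5.19% in control cells, and STX16 23.5% in si2 cells and 37.1% in control cells.

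**Figure D3:**
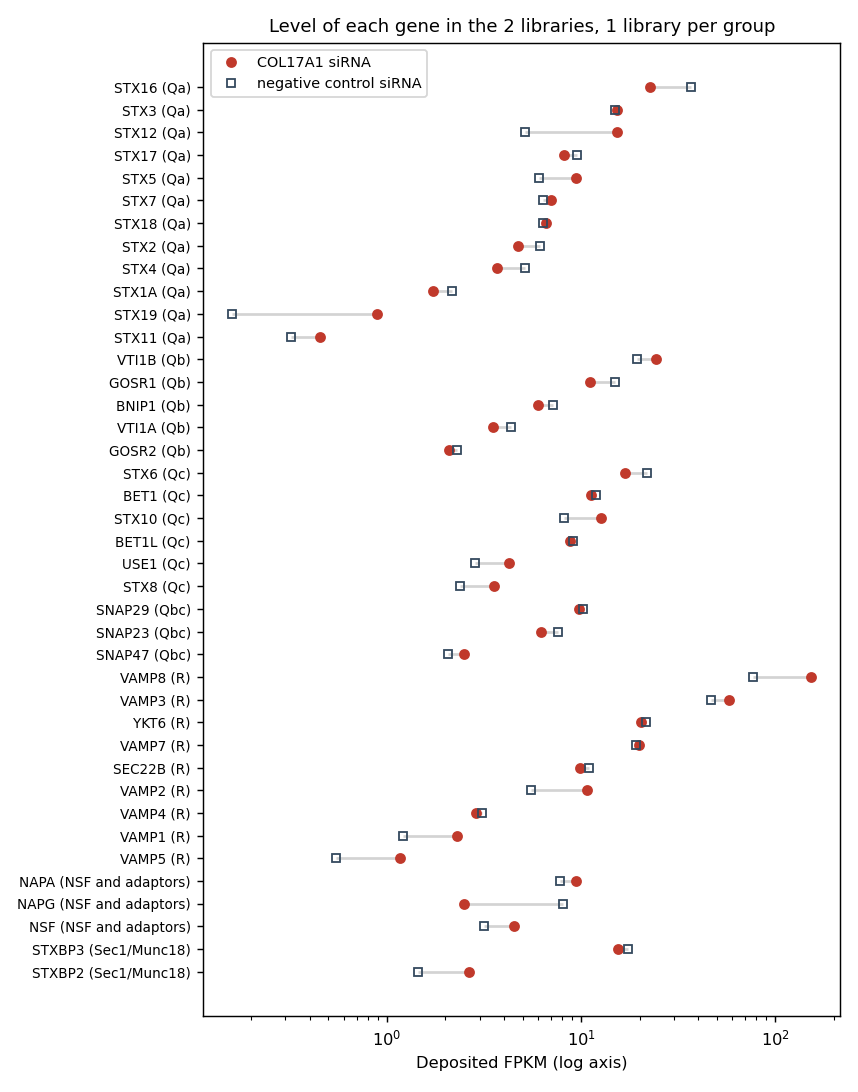
Deposited FPKM (log axis) of all 40 genes in the COL17A1 siRNA library (red discs) and the negative control library (open squares), ordered by class and mean level. VAMP8 is the most abundant in both, at 154 and 76.9 FPKM, and STX12, NAPG and STX19 show the widest gaps.

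Of the Qb genes 0 of 5 were called, where 12.2% of all genes compared were higher and 11.7% lower, and 4 had values below 0. VTI1B, the Qb SNARE of late endosomes and the most abundant of them, had 3031 counts in si2 cells and 1799 in control cells, 24.3 against 19.5 FPKM, at 0.28 [0.19 to 0.36]. VTI1A, its trans-Golgi relative, was at -0.35 [-0.51 to -0.18]. GOSR1 and GOSR2, the Qb SNAREs of Golgi transport, were at -0.46 [-0.55 to -0.38] and -0.18, and BNIP1, which acts in return to the endoplasmic reticulum, at -0.28.

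Of the 6 Qc genes 1 was called higher, or 16.7%, near the 12.2% of all genes compared, and 0 lower. After the adjustment that gene, STX10, was at 0.09. STX10, a syntaxin of the trans-Golgi network, had 493 counts in si2 cells and 234 in control cells, 12.7 against 8.15 FPKM, at 0.60 [0.37 to 0.83]. STX6, a close relative at the same membrane, had 2345 counts in si2 cells against 2264 in control cells and 16.8 against 21.9 FPKM, at -0.42 [-0.51 to -0.34], with an interval on the other side of 0. The FPKM of STX10 was 0.758 times that of STX6 in si2 cells and 0.373 times in control cells. STX8 of late endosomes was at 0.54 and USE1, of return traffic to the endoplasmic reticulum, at 0.54, both just under 1.5-fold, on 265 and 223 counts in si2 cells and 131 and 110 in control cells. BET1 and BET1L, which work in the early and later Golgi, were at -0.13 and -0.10.

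The proteins that carry both a Qb and a Qc helix gave 0 of 3 calls, beside 12.2% higher and 11.7% lower of all genes compared. SNAP23, the partner of plasma membrane syntaxins outside neurons, had 781 counts in si2 cells and 710 in control cells, 6.18 against 7.59 FPKM, at -0.34 [-0.48 to -0.19]. SNAP29, which acts with STX17 on autophagosomes, was at -0.11 and SNAP47 at 0.24. LRRC57 lies across SNAP23 on the opposite strand, with 847 counts in si2 cells and 395 in control cells. SNAP25, the neuronal relative outside the 40, had 0 counts in both libraries. That allows up to 0.139 CPM in si2 cells and 0.188 CPM in control cells, here scaled to the library total alone.

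The R-SNAREs, carried mostly by vesicles, held 3 of the 7 higher genes, out of 8 compared, or 37.5% beside 12.2% of all genes compared. After the adjustment 2 of the 8 were called higher, beside 7.36% of all genes. VAMP8, or endobrevin, which serves late endosomes, autophagosomes and regulated secretion in epithelia, had 2971 counts in si2 cells and 1100 in control cells. Its level was 154 FPKM in si2 cells against 76.9 FPKM in control cells and its log2 ratio 0.96 [0.86 to 1.06], or 1.94-fold higher. VAMP2, a synaptobrevin that also works in surface delivery outside neurons, had 747 counts in si2 cells against 286 in control cells and 10.7 against 5.52 FPKM, at 0.91 [0.71 to 1.11]. VAMP1, the other synaptobrevin, was scarcer, with 162 counts in si2 cells against 63 in control cells and 2.29 against 1.21 FPKM, at 0.88 [0.46 to 1.33]. TAPBPL lies across VAMP1 on the opposite strand with 459 counts in si2 cells and 163 in control cells, and whether counting used strand is not given, so this value is uncertain. VAMP2 overlaps 1 unnamed locus on its strand, with 0 counts in si2 cells and 6 in control cells.

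The other R-SNAREs lay closer to 0. VAMP3, or cellubrevin, the recycling endosome relative of VAMP2, had 3405 counts in si2 cells and 2033 in control cells, 57.7 against 46.6 FPKM, at 0.27 [0.19 to 0.35]. VAMP7 of lysosomes had 1125 counts in si2 cells against 806 in control cells and 19.9 against 19.3 FPKM, at 0.01 [-0.12 to 0.14], an interval clear of that of VAMP8. YKT6, SEC22B and VAMP4, which act in the Golgi, in transport out of the endoplasmic reticulum and at the trans-Golgi network, were at -0.13, -0.19 and -0.15. VAMP5, known from muscle, had 20 counts in si2 cells and 7 in control cells, and no difference was detectable at this depth [-0.26 to 2.53]. The 9 R-SNARE genes summed to 278 FPKM in si2 cells and 186 FPKM in control cells. The sum over all genes, given above, was also higher in si2 cells. VAMP8 made up 55.2% of the R-SNARE sum in si2 cells and 41.4% in control cells, and VAMP3 20.7% in si2 cells and 25.1% in control cells.

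NSF and its adaptors, which recycle spent SNARE bundles, included the gene with the lowest ratio of the set. NAPG, gamma-SNAP, had 299 counts in si2 cells and 721 in control cells, or 2.48 against 8.07 FPKM. The log2 ratio was -1.74 [-1.94 to -1.55], 3.35-fold lower, with no other locus across the gene (chromosome 18, 10525905 to 10552764, plus strand) and 0 counts on both of its annotated pseudogenes. NAPA, alpha-SNAP, the general adaptor of SNARE bundles, had 1158 counts in si2 cells against 710 in control cells and 9.42 against 7.81 FPKM, at 0.23 [0.10 to 0.37]. NSF itself had 485 counts in si2 cells against 254 in control cells and 4.49 against 3.18 FPKM, at 0.46 [0.24 to 0.68]. The FPKM of NAPA was 3.80 times that of NAPG in si2 cells, and 0.968 times in control cells. NSF has a partial copy, NSFP1, with 0 counts in si2 cells and 3 in control cells, and the ribosomal pseudogene RPS7P11 on the opposite strand had 554 and 288, which leaves the NSF value uncertain.

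**Figure D4:**
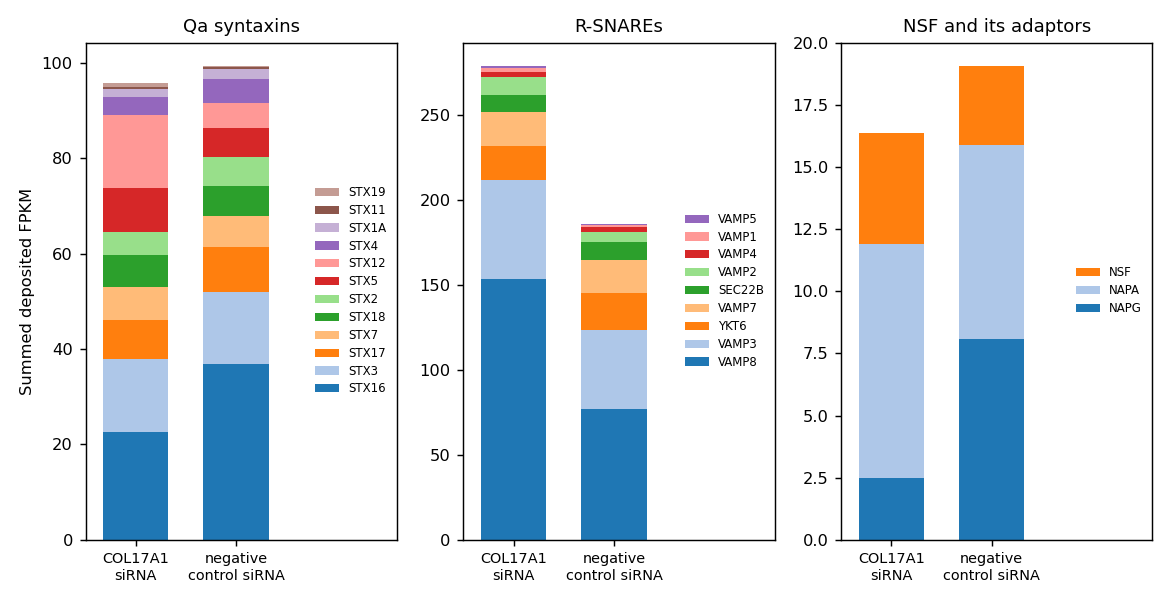
Summed deposited FPKM of the 12 Qa syntaxins, the 9 R-SNAREs and NSF with its 2 adaptors, COL17A1 siRNA library left and negative control library right in each panel, stacked by gene; panels have their own linear axes from 0. The Qa sums are 95.9 and 99.3 with a wider STX12 and a narrower STX16 band on the left, the R-SNARE sums are 278 and 186, and the NAPG band is 2.48 on the left and 8.07 on the right.

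Of the Sec1/Munc18 genes, STXBP2, or Munc18-2, which binds STX3 and STX11, had 347 counts in si2 cells and 141 in control cells. Its level was 2.65 FPKM in si2 cells against 1.45 in control cells and its log2 ratio 0.82 [0.54 to 1.12]. STXBP3, or Munc18c, the partner of STX4, had 1962 counts in si2 cells against 1642 in control cells and 15.4 against 17.4 FPKM, at -0.22 [-0.31 to -0.12]. It remained the more abundant of the pair in both libraries, with STXBP2 at 0.172 times its FPKM in si2 cells and 0.0831 times in control cells. STXBP2 shares 10706 bases with an unnamed locus on its strand that had 0 counts in both libraries.

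Read by the bundles these proteins are known to form, the trans-Golgi set had STX16 at -0.75, STX6 at -0.42 and VTI1A at -0.35, with intervals below 0, and VAMP4 at -0.15 [-0.40 to 0.10], whose interval spans 0; STX16 was called. The late endosomal set had values above 0 in all 4, VAMP8 at 0.96, STX8 at 0.54, VTI1B at 0.28 and STX7 at 0.10, of which VAMP8 was called. STX10, also of the trans-Golgi network, was at 0.60, and VAMP7 of lysosomes at 0.01 [-0.12 to 0.14]. Neither was placed in a set, so the trans-Golgi and late endosomal patterns depend on the genes chosen. The early endosomal set, which shares STX6, VTI1A and VAMP4 with the trans-Golgi set, spanned 1.95 on the log2 scale, with STX12 at its upper end. In the autophagosomal set VAMP8 stood apart from STX17 and SNAP29, and in the plasma membrane set VAMP3 was above 0 while STX4 and SNAP23 were below it. In the 2 Golgi sets STX5 was above 0 and its partners GOSR2, BET1, SEC22B, GOSR1, BET1L and YKT6 below, BET1L with an interval of -0.26 to 0.06 that spans 0. After the adjustment GOSR2, BET1 and SEC22B were above 0, at 0.06, 0.06 and 0.14, so the signs of these partners depend on it. The point values of the trans-Golgi set stayed below 0 after it, STX16 at -0.66, STX6 at -0.22, VTI1A at -0.13 and VAMP4 at -0.02. Of these only STX16 was then called. Point values of the late endosomal set stayed above 0, VAMP8 at 0.56, STX7 at 0.52, VTI1B at 0.47 and STX8 at 0.46, and none was then called. Intervals in this paragraph are of ratios before the adjustment, and none is given for those after it. In the set that returns vesicles to the endoplasmic reticulum, USE1 at 0.54 and BNIP1 at -0.28 were the extremes and STX18 and SEC22B lay between them. Genes shared between sets are the same measurement, and the sets were not tested.

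**Figure D5:**
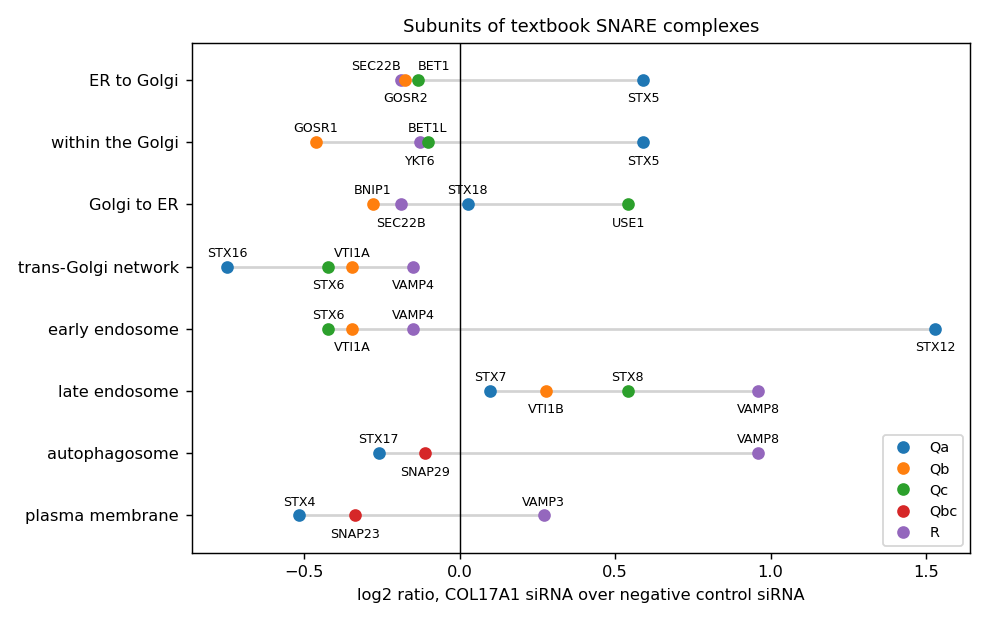
Log2 ratio, COL17A1 siRNA over negative control siRNA, of each subunit of 8 textbook SNARE bundles, coloured by helix class, with a grey line from the lowest to the highest subunit. The point values of the trans-Golgi set run from -0.75 to -0.15 and those of the late endosomal set from 0.10 to 0.96. Counting intervals are not drawn, and that of VAMP4 spans 0. STX10 and VAMP7 are in none of the sets.

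The machinery around the SNAREs, tethers that capture vesicles and further regulators, was taken from lists by function, 91 genes of which 82 were compared. Of these 6 were called higher and 10 lower, or 7.32% and 12.2%, beside 12.2% and 11.7% of all genes compared, so the share of lower genes was near that of all genes. The median was -0.12. The exocyst (9 genes), the late endosomal HOPS and CORVET tethers (7) and the GARP and EARP tethers (5) had 0 genes called in either direction, with medians of -0.17, -0.23 and -0.14. Among the 14 golgins and coiled-coil tethers 3 were lower and 1 higher. RABEP1, rabaptin 5 of early endosomes, was at -1.57 [-1.73 to -1.42] with 527 counts in si2 cells and 1130 in control cells, the golgin gene GCC2 at -1.10 and GOLGB1, giantin, at -0.63, while RABEP2 was at 0.69. After the adjustment GOLGB1 and RABEP2 lay under 1.5-fold, at -0.21 and 0.29.

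Of 13 TRAPP subunits 2 were higher and 2 lower, or 15.4% each way, near the 12.2% and 11.7% of all genes, and the paralogues TRAPPC6A and TRAPPC6B were called in opposite directions. TRAPPC6A had 390 counts in si2 cells and 150 in control cells, at 0.90 [0.63 to 1.19], and TRAPPC6B had 215 in si2 cells against 506 in control cells, at -1.71 [-1.95 to -1.48]. TRAPPC1 was at 0.82 and TRAPPC10 at -1.14. TRAPPC5, under the abundance limit and not counted here, had 24 counts in si2 cells and 5 in control cells, at 1.68 [0.37 to 3.54]. Of the 10 lower genes of all these lists 1, TRAPPC6B, held GCTAATG, where 27.6% of all 1360 lower genes searched did. In the COG tether 1 of 8 was lower, COG3 at -0.65, and in the 3-gene complex at the endoplasmic reticulum that works with STX18, 1 was higher, ZW10 at 0.59. Of 6 further Sec1/Munc18 genes VPS33B was higher, at 0.72 on 74 counts in si2 cells against 32 in control cells, and SCFD2 lower, at -1.14 on 20 against 32. Of 12 SNARE-binding regulators 1 was higher, SNAPIN at 0.75, and 2 were lower, TXLNG, a syntaxin-binding taxilin, at -0.95 with 2452 counts in si2 cells against 3415 in control cells, and SYTL4, granuphilin, at -1.30 on 15 against 27. STXBP6, or amisyn, under the abundance limit and not counted here, had 1 count in si2 cells and 12 in control cells, with an interval of -9.48 to -1.30. Of 5 further SNARE and adaptor genes NAPB, beta-SNAP, was lower at -0.62 [-0.87 to -0.36], with 251 counts in si2 cells against 277 in control cells. After the adjustment the 6 higher genes of these lists lay under 1.5-fold, and COG3 and NAPB lay under it at -0.46 and -0.49.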

How the data were processed

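Per the labels, a stranded polyadenylated RNA kit or an equivalent and paired-end reads were used. The deposited table holds raw counts, which the authors did not normalize, and, per the file headers, FPKM; dividing each count by exonic size and library total gave the same FPKM within 0.005. STAR, HISAT2, edgeR, hg38 and GRCh38 are named in the submitters' processing notes, without roles or versions; how strand was handled in counting, by which tool and on which annotation is not given in the sources used here. Loci that overlap were found from deposited coordinates. Not every overlap is reported here.

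TMM factors were 1.01 for si2 cells and 0.987 for control cells (edgeR 4.0.16, R 4.3.3). Log2 ratios used counts plus 0.5, and 95% intervals are exact Clopper-Pearson intervals of the share of both counts, which cover counting error only, because without molecular identifiers a read is not a separate molecule. Of 24705 genes with counts 13375 had a mean of at least 1 CPM. A count of 0 allows 3 counts. No test across genes was run. The steps were tested on simulated data.

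The adjustment fitted log2 ratios on cubic terms of exonic length, GC content (GENCODE release 29, 99.1% of genes) and abundance. Ratios were capped at 3 in size for the fit alone, and residuals were taken from the uncapped ratios. Values are named for all 40 genes and for every list gene at least 1.5-fold apart with an interval clear of 0 on the log2 scale, up to 6 a list; those under 1 CPM are named but not counted. The members, lists and word searches were chosen with earlier results of these data known. As alternatives, total counts, DESeq2 1.42.0 size factors, FPKM plus 0.1, an offset of 2, other filters, a 2-fold rule and wider intervals were tried. The work used pandas 2.3.3, numpy 2.4.6, matplotlib 3.10.9 and scipy 1.17.1 under Python 3.11.15.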

Additional observations from a re-analysis of the deposited data

How the results depend on the processing

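No paired analysis was possible because each group has 1 library, and for the same reason no library could be left out. The 7 higher and 2 lower SNARE genes became 3 and 4 after the adjustment for GC content, length and abundance, when 7.36% of all genes were higher and 9.41% lower, and 1 and 1 under the 2-fold rule. With intervals widened for an assumed coefficient of variation of 0.2 between cultures they became 3 (STX12, VAMP8 and VAMP2) and 1 (NAPG), beside 3.98% and 5.41% of all genes. Without genes that hold GCTAATG, an alternative chosen after seeing the data, 7 were higher and 0 lower, beside 12.8% and 9.61% of all genes. STX12 and NAPG kept their calls under every alternative run, except that NAPG was itself left out with the word. With DESeq2 size factors STX5 and STX10 lost theirs, leaving 5 higher of 38, beside 11.4% of all genes. With every gene that had a count STX19 was added, giving 8 of 40, beside 7.92% of all genes. The median of the SNARE genes ran from -0.10 (mean of at least 5 CPM) to 0.05 (adjusted), so its sign is not settled. For the 82 genes compared of the surrounding lists the 6 higher genes became 0 after the adjustment, 0 under the 2-fold rule and 2 with wider intervals. The 10 lower genes became 7, 6 and 7 in the same order. Of all genes 3.04% were higher and 3.6% lower under the 2-fold rule. Shares of all genes for the adjustment and the wider intervals are those given above. No called gene named above changed its direction under an alternative. After the adjustment the uncalled STX3, STX17, GOSR2, BET1, SEC22B and STXBP3 turned to values above 0 and STX18 to one below it. STX3 was also above 0 with total counts and with FPKM plus 0.1, at 0.03 in each. The uncalled VAMP7 was below 0 with DESeq2 size factors, at -0.01. The adjustment moved 22 of the 40 log2 ratios outside their counting intervals, and no other scaling, offset or filter moved any. Depth limits STX19, VAMP5 and STX11 most.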
